A study of Mus musculus with 6106 samples.

Results

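Regulatory T cells that carried UMIs of S100a4, S100a6, Ccr2, Klrg1 or Gzmb were examined among single splenic regulatory T cells sorted by their level of an Nr4a1-Gfp reporter. A cell was a member when it held at least 500 UMIs (unique molecular identifiers, each standing for 1 counted RNA molecule) and at least 2 UMIs summed over these 5 gate genes. By this rule 439 of 5435 cells with 500 or more UMIs were members, out of 6106 cells in all, and they are called gated cells here. Since the cells were selected on the measured UMIs of the 5 genes, nothing about these genes within the gated cells is a finding. The other cells of the same bin, which held 0 or 1 gate UMI, served for comparison. The cells came from spleens of male mice aged 10 months on the B6 background that carried the alleles Nr4a1-Gfp and Foxp3-Ires-Thy1.1, in which GFP reports transcription of Nr4a1 and Thy1.1 marks cells that express Foxp3. Live TCRb+ CD4+ FoxP3-Thy1.1+ cells were sorted into 3 bins of GFP, with GFPlow from 0 to 20%, GFPmed from 40 to 60% and GFPhigh from 80 to 100% of the GFP distribution, and each bin became a single inDrops library. Every group thus shared sex, age, strain, both reporter alleles and the Thy1.1 gate. The number of mice behind each library is not stated in the labels.

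Regulatory T cells restrain other immune cells under the control of the transcription factor Foxp3. Resting, or central, regulatory T cells recirculate through lymphoid tissue using homing receptors such as Ccr7, whereas effector regulatory T cells lose such receptors and gain integrins, chemokine receptors and suppressive molecules. Nr4a1 is an immediate early gene that is induced by T cell receptor signalling, so its reporter is widely used as a readout of recent antigen receptor stimulation. S100a4 and S100a6 are small calcium-binding proteins found in activated and memory lymphocytes, Ccr2 is a chemokine receptor for migration to inflamed tissue, Klrg1 is an inhibitory receptor of terminally differentiated lymphocytes, and Gzmb (granzyme B) is a cytotoxic granule protease.

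S100a4 and S100a6 lie near each other on mouse chromosome 3, at chr3:90603771-90606045 and chr3:90612882-90624181, both on the plus strand (mm10, GENCODE M21 gene bounds). Between them lies S100a5, at chr3:90608523-90611780. The gate genes on other chromosomes are Ccr2 at chr9:124101950-124113557 on the plus strand, Klrg1 at chr6:122270596-122282882 on the minus strand and Gzmb at chr14:56258838-56262260 on the minus strand. The stretch from 150 to 20 bases before the RefSeq start (GRCm38.p6, 130 bases, written along the gene's own strand) is shown for the pair of S100 genes that were found in the same cells, and for Gzmb, the gate gene found in the smallest share of gated cells of GFPlow. Capitals mark a TATA box (TATAAA) in S100a4, RUNX core motifs (TGTGGT) in S100a6 and Gzmb, and an AP-1 motif (TGANTCA) in Gzmb.
S100a4 chr3:90603620-90603749 plus strand: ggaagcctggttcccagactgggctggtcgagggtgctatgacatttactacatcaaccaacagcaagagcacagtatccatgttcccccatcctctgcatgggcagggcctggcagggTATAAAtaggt
S100a6 chr3:90612744-90612873 plus strand: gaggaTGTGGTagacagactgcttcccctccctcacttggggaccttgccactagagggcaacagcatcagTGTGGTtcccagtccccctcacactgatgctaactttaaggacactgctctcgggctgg
Gzmb chr14:56262355-56262484 minus strand: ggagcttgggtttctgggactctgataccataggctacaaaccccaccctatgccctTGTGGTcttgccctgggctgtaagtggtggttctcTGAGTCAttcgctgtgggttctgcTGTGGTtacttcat
Of 32851 windows of the same length in the RefSeq table, 6.91% hold TATAAA, 7.47% hold TGTGGT and 3.82% hold TGANTCA on either strand. The matches are descriptions of these letters and not evidence of binding.

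Each bin was 1 library with 0 replicates, so a bin, its library and its depth cannot be told apart. No test is given, and every interval is a 95% interval that covers counting error only. The median depth of gated against other cells was 1108.5 against 1083 UMIs in GFPlow and 1444 against 1549 in GFPmed, whereas in GFPhigh the gated cells were deeper, at 1390.5 against 1119. Between 29 and 35 cell barcodes were shared by each pair of libraries, and 0 of them belonged to a gated cell in both.

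Gated cells were most frequent in the GFPlow library. In GFPmed 85 of 1537 cells were gated (5.53%, exact binomial interval 4.44 to 6.79%) and in GFPhigh 56 of 1775 (3.15%, 2.39 to 4.08%). All the remaining gated cells came from GFPlow, where they made up 14.0% of the cells (12.6 to 15.6%). The order was kept when every cell was thinned to 500 UMIs, where 8.57%, 2.54% and 1.63% of the cells were gated. The neighbours GFPmed and GFPhigh overlapped in their intervals after thinning (1.81 to 3.45% and 1.10 to 2.34%), whereas the GFPlow interval (7.42 to 9.85%) overlapped neither. As a background, 4 of 47 cells with B cell markers in these libraries passed the same gate (8.51%, 2.37 to 20.4%, median depth 1114 UMIs), and 1 of 47 did so after thinning (2.13%, 0.0539 to 11.3%). All 3 gated shares lay within the wide interval of that background, as deposited and after thinning, so none can be read as above it from these 47 cells. The deposited shares of GFPmed and GFPhigh were also below its value of 8.51%. The 4 cells are themselves gated cells, 1 of GFPlow with 3 gate UMIs and 3 of GFPhigh with 13. The B cell marker cells that were not gated held 0, 0 and 1 gate UMI in GFPlow, GFPmed and GFPhigh. This background thus overlaps the groups compared and cannot give a rate of free RNA. The part of free RNA in the gated shares was not tested.

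**Figure D1:**
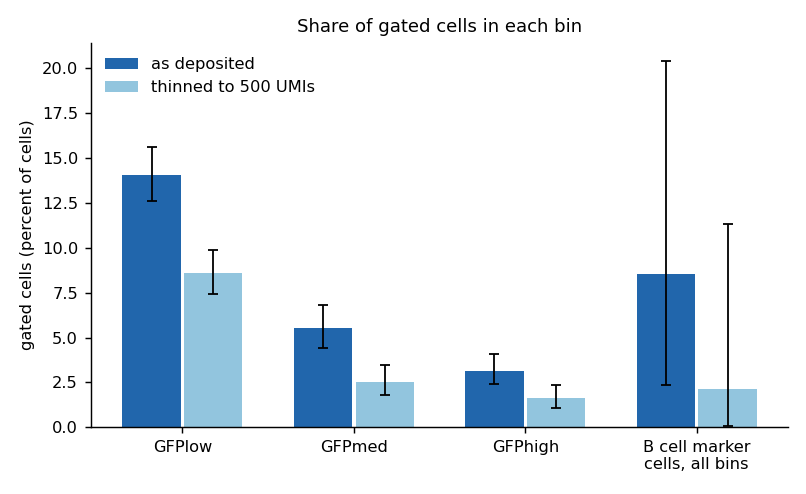
Share of cells (percent, linear axis) that met the gate in each GFP bin and among the cells with B cell markers of all bins, in the counts as deposited and after thinning to 500 UMIs, with exact binomial 95% intervals. The share as deposited was 14.0% for GFPlow, 5.53% for GFPmed and 3.15% for GFPhigh cells.

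The gate was carried mainly by the S100 genes. In GFPlow S100a6 gave 850 of the gate UMIs of gated cells (46.1%) and was found in 76.5% of these cells, and S100a4 gave 623 (33.8%) and was found in 69.5%. Ccr2 gave 12.5% of the gate UMIs and was found in 102 cells (34.2%), Klrg1 gave 90 UMIs (14.4% of cells) and Gzmb 49 UMIs (5.37%). The cells were chosen by these same UMIs, so the values are a description only.

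The 5 genes did not contribute alike in the other bins. In the 85 gated cells of GFPmed, S100a6 was found in 82.4%, S100a4 in 47.1%, Ccr2 in 18.8%, Klrg1 in 15.3% and Gzmb in 8.24%. In the 56 gated cells of GFPhigh, S100a6 was found in 71.4%, S100a4 in 44.6%, Klrg1 in 28.6%, Gzmb in 10.7% and Ccr2 in 3.57%. The last of these shares is 2 cells with 2 Ccr2 UMIs, so Ccr2 was rare among the gated cells of GFPhigh. Here too the cells were chosen by the same UMIs, and the shares are a description only.

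Across all cells with at least 500 UMIs, Ccr2 differed most between the libraries as a ratio, and S100a6 and S100a4 in percentage points. Its share of cells with a UMI was 5.28% in the GFPlow library, 1.30% in the middle bin and 0.169% in the highest, or 3.34%, 0.586% and 0.0563% after thinning. S100a4 went from 11.9% over 3.06% to 1.80%, and S100a6 from 15.6% over 6.90% to 4.51%. Klrg1 (2.36%, 1.11% and 1.75%) and Gzmb (0.895%, 0.521% and 0.620%) showed no such steep order. In the 47 cells with B cell markers, 1 cell had an S100a4 UMI, 2 had S100a6, 1 had Klrg1, 1 had Gzmb and 0 had Ccr2. A count of 0 in 47 cells allows a share of up to 6.38%. S100a4 and S100a6 are found in activated and memory lymphocytes, and whether these UMIs were the cells' own was not tested.

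Within GFPlow the gate genes were found in the same cells. Of 252 cells with S100a4, 58.7% also had S100a6, against 9.78% of the 1871 cells without S100a4. After thinning to 500 UMIs the shares were 42.9% and 7.55%. Of the cells with Ccr2, 80 had S100a4 (71.4%), against 172 of 2011 without Ccr2 (8.55%), or 53.5% against 6.68% after thinning. Klrg1 was found in 22 of the Ccr2 cells (19.6%) and in 28 of the 2011 others (1.39%). Gzmb was found in 7 of the Ccr2 cells (6.25%) and in 12 of the 2011 others (0.597%). With Klrg1 it shared 1 cell, of 50 Klrg1 cells (2%), against 18 of 2073 without Klrg1 (0.868%), which is too few to compare. In GFPmed and GFPhigh 68.1% and 65.6% of the S100a4 cells had S100a6, against 4.97% and 3.38% of those without S100a4. Of 3 Ccr2 cells in GFPhigh, 1 had S100a4 and 0 had S100a6. Of 11 Gzmb cells there, 0 had S100a4 and 1 had S100a6.

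Taken as groups, the gated cells carried the RNA of regulatory T cells. Foxp3 was detected in 40.3% of gated against 28.7% of other cells in GFPlow, in 32.9% against 33% in GFPmed and in 33.9% against 30.4% in GFPhigh. By level, Foxp3 stood at 5.10 against 3.68 UMIs per 10000 in GFPlow (log2 ratio 0.47, interval 0.23 to 0.70), 2.94 against 3.19 in GFPmed (-0.10, -0.58 to 0.31) and 3.55 against 3.59 in GFPhigh (0.01, -0.58 to 0.50). Of the 47 cells with B cell markers, 2 had a Foxp3 UMI. The T cell genes Cd4 (log2 ratio 0.39, 0.25 and 0.66 in GFPlow, GFPmed and GFPhigh), Cd3d (0.22, 0.20 and 0.54) and Lck (-0.04, -0.30 and -0.26) were each within 2-fold of the other cells. Il2ra, the high-affinity IL-2 receptor chain, was lower in gated cells, at 2.41 against 3.3 UMIs per 10000 in GFPlow (log2 ratio -0.44), 2.19 against 3.91 in GFPmed (-0.82) and 2.75 against 5.19 in GFPhigh (-0.89). Ikzf2 (Helios) was higher, at 10.1 against 4.18, 12.8 against 4.56 and 17.5 against 7.51 UMIs per 10000. As groups, the gated cells of all 3 bins thus carried Foxp3 at a level near or above that of the other sorted cells. These values do not show that each gated cell was a regulatory T cell. In GFPmed 1 of 7 gated cells with myeloid markers and 1 of 8 with CD8 T or NK markers had a Foxp3 UMI. In GFPhigh 0 of 3 with B cell markers had any.

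Some gated cells carried markers of other cell types, most of all in GFPmed. Counting 57 markers of B, plasma, myeloid, CD8 T or NK, erythroid and platelet lineage that had a UMI in at most 100 cells, 7 gated cells of GFPlow held 3 or more such UMIs (2.35%), 11 of 85 of GFPmed (12.9%, 6.64 to 22%) and 4 of 56 of GFPhigh (7.14%). Among the other cells the shares were 1.37%, 2.62% and 1.92%. In GFPmed, 7 of these gated cells held myeloid and 8 held CD8 T or NK markers, and 1 of them alone held 189 myeloid marker UMIs. The summed myeloid list stood at 20.3 against 6.93 UMIs per 10000 there (5.87 against 6.38 in GFPlow and 4.13 against 5.41 in GFPhigh), with Cd68, Cd14, C1qa, S100a8, S100a9 and Clec4d at 0 of its 20 genes. The summed CD8 T or NK list stood at 10.2 against 0.706 in GFPmed (0.549 against 0.502 in GFPlow and 1.26 against 0.738 in GFPhigh), with only Klra4 at 0 of its 12 genes. In GFPhigh 3 gated cells held B cell markers and no Foxp3 UMI, and the summed B cell list stood at 7.22 against 0.93 UMIs per 10000 (0.851 against 1.04 in GFPlow and 0.438 against 1.30 in GFPmed). The plasma cell list stood at 0.933 against 1.03, 0.750 against 0.663 and 0.803 against 3.40 UMIs per 10000 in GFPlow, GFPmed and GFPhigh. The erythroid list was lower in the gated cells of each bin, at 0.466 against 16.4, 0.5 against 32 and 0.229 against 10.9. Platelet genes had 0 UMIs in the gated cells of all 3 bins. Values without these cells are given beside results that they moved, and the choice to leave them out was made after the data were seen.

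Relative to the other cells of their bin, gated cells had more genes at least 2-fold higher than lower in GFPlow and GFPmed. In GFPlow 4979 genes other than the gate genes were deep enough to be compared (an expected count of at least 10 in the gated cells), of which 5.04% were at least 2-fold higher and 2.87% at least 2-fold lower. In GFPmed 5.46% of 2456 genes were higher and 80 genes lower (3.26%), and in GFPhigh 59 of 1357 were higher (4.35%) and 75 lower (5.53%). The median over these genes was 0.16, 0.15 and 0.02 on the log2 scale. The split depended on the scaling, since with trimmed mean of M-values (TMM) scaling, which lowered the log2 ratios by 0.21, 0.31 and 0.33, the shares were 2.77% higher and 4.68% lower in GFPlow, 2.28% and 6.88% in GFPmed, and 1.62% and 11.6% in GFPhigh. Counting any rise, 3159 of 4979 genes were higher in GFPlow, 1518 of 2456 in GFPmed and 701 of 1357 in GFPhigh. A list's count of higher genes is to be read beside these. A gene list is described below by its counts and its median beside these values over all genes.

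S100, annexin, galectin and cortical cytoskeleton genes were the list with the largest median in GFPlow. Of 24 listed genes, none of them a gate gene, 18 were deep enough in GFPlow, 17 of these were higher in gated cells and 11 were at least 2-fold higher, with a median log2 ratio of 1.31 against 0.16 over all genes. The summed list stood at 126 against 50.3 UMIs per 10000. In GFPmed the median was 0.87 (14 of 16 higher, 6 at least 2-fold) and in GFPhigh 0.56 (11 of 13 higher, 4 at least 2-fold, or 9 of 11 and 2 without the cells that held markers of other types).

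S100a10, the partner of annexin A2 at the plasma membrane, stood at 19.1 UMIs per 10000 in gated and 5.10 in other cells of GFPlow, at 13.7 and 4.16 in GFPmed and at 10.8 and 4.09 in GFPhigh. Its log2 ratios were 1.90 (1.76 to 2.04), 1.72 (1.5 to 1.93) and 1.40 (1.07 to 1.70). S100a11, another small calcium-binding protein, stood at 8.48 and 1.71, 6.81 and 1.11, and 8.14 and 0.902 UMIs per 10000 in the same order. Its log2 ratios of 2.31 (2.08 to 2.53), 2.62 (2.28 to 2.95) and 3.18 (2.76 to 3.57) did not shrink towards GFPhigh. Neither S100a10 nor S100a11 had a part in the gate.

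Lgals1, which encodes the secreted lectin galectin-1, stood at 7.30 against 1.23 UMIs per 10000 in GFPlow (log2 ratio 2.57), 7.44 against 1.01 in GFPmed (2.88) and 3.78 against 1.41 in GFPhigh (1.44). Vim, the intermediate filament vimentin, stood at 11.7 against 3.97, 9.25 against 2.96 and 4.70 against 3.23. Both had their smallest ratio in GFPhigh. The giant scaffold protein gene Ahnak stood at 6.89 against 1.77 in GFPlow and 4.75 against 0.642 in GFPmed. Anxa2, which encodes annexin A2, stood at 1.15 against 0.179 in GFPlow (log2 ratio 2.69), and the long-tailed myosin Myo1f at 2.36 against 0.328 (2.84). In GFPmed Anxa2 stood at 3.06 against 0.0893 UMIs per 10000, below the depth set for a comparison.

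**Figure D2:**
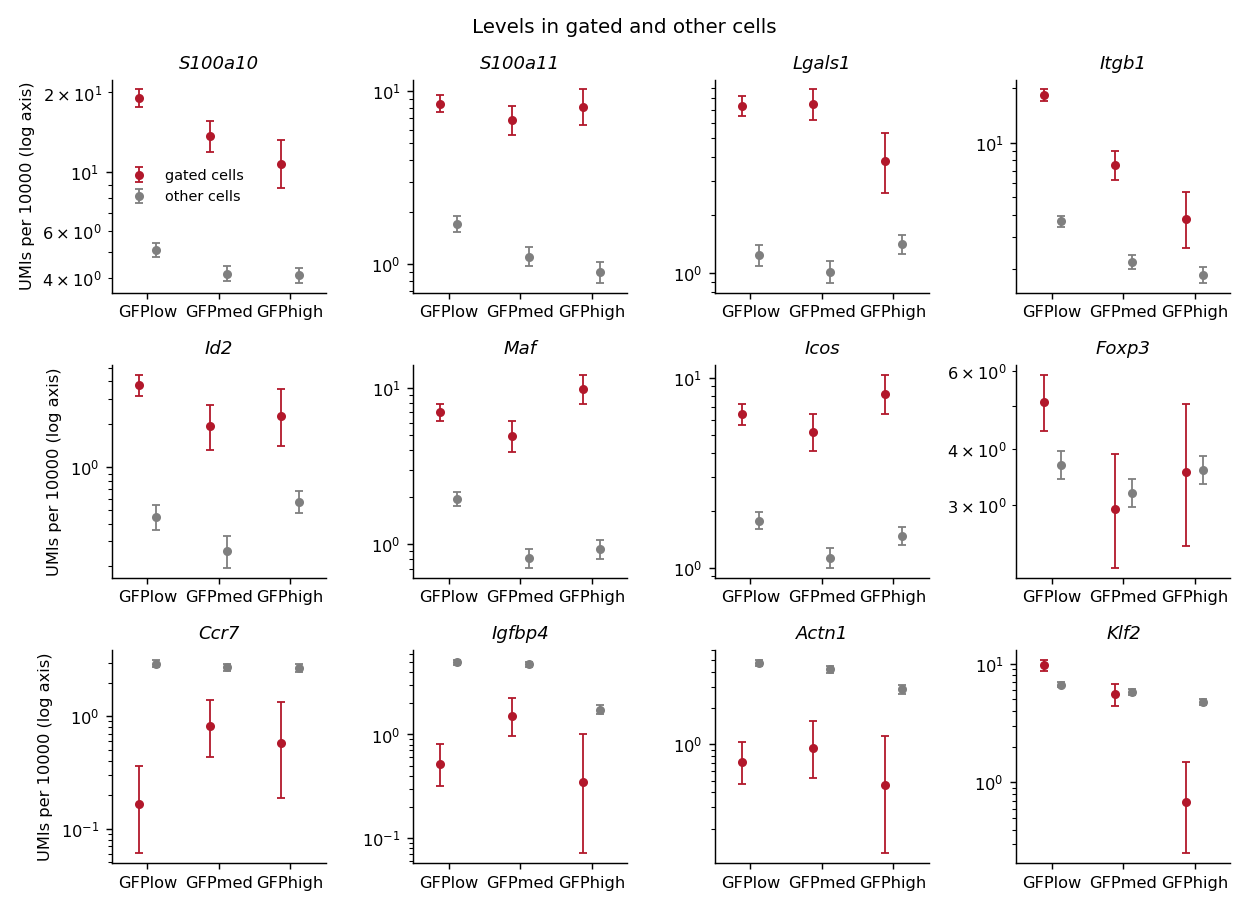
Levels of selected genes (UMIs per 10000, log axis) in gated and in other cells of each GFP bin, with exact Poisson 95% intervals. S100a11 stood at 8.48 against 1.71 in GFPlow and at 8.14 against 0.902 in GFPhigh, while Ccr7 was lower in the gated cells of all 3 bins.

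Effector transcription factors were higher in gated cells. Of 22 listed genes 9 were deep enough in GFPlow, all 9 were higher and 5 were at least 2-fold higher, with a median of 1.12. In GFPmed 3 of 4 were at least 2-fold higher (median 1.45), and in GFPhigh 2 of 4 were (median 0.87). Id2, an inhibitor of E proteins that is found in effector lymphocytes, stood at 3.79 against 0.444 UMIs per 10000 in GFPlow (log2 ratio 3.09, 2.70 to 3.49). It stood at 1.94 against 0.255 in GFPmed and 2.29 against 0.568 in GFPhigh, where its count was below the set depth.

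Maf, a factor linked to IL-10 production and to effector regulatory T cells, had its largest ratio in GFPhigh. It stood at 6.97 against 1.95 UMIs per 10000 in GFPlow (log2 ratio 1.84, 1.60 to 2.07), 4.94 against 0.816 in GFPmed (2.60, 2.20 to 2.98) and 9.86 against 0.934 in GFPhigh (3.40, 3.02 to 3.77). It was found in 57.1% of gated and 7.04% of other cells of GFPhigh. Gata3, the T helper 2 factor that is also used by tissue regulatory T cells, stood at 5.24 against 2.41, 5.06 against 1.80 and 5.05 against 3.43. Prdm1 (Blimp-1), a regulator of terminal effector cells, stood at 0.713 against 0.362 in GFPlow, and at 1.38 against 0.179 in GFPhigh with 12 UMIs in the gated cells. Hif1a, the oxygen-responsive factor, was at least 2-fold higher in each bin, with log2 ratios of 1.29, 1.39 and 1.17.

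Homing receptors and integrins were higher as a list in GFPlow, with 16 of 18 compared genes higher, 6 of them at least 2-fold, 1 at least 2-fold lower, and a median of 0.84 (29 listed). The medians were 0.63 in GFPmed (11 of 12 higher, 4 at least 2-fold, 1 at least 2-fold lower, or 9 of 11 higher and 2 at least 2-fold without the cells that held markers of other types) and 0.39 in GFPhigh (5 of 8 higher). Itgb1, the integrin beta 1 chain shared by many matrix receptors, stood at 18.3 against 3.69 UMIs per 10000 in GFPlow (log2 ratio 2.31, 2.16 to 2.46), 7.50 against 2.19 in GFPmed (1.78, 1.48 to 2.07) and 3.78 against 1.86 in GFPhigh (1.05, 0.47 to 1.54). The ratio was smaller in each higher bin. Itgae (CD103), the integrin chain that binds epithelial E-cadherin, was found in 51 gated cells of GFPlow (17.1%) and in 1.92% of the others, at 2.11 against 0.198 UMIs per 10000.

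Cxcr3, a receptor for interferon-induced chemokines, stood at 1.62 against 0.410 UMIs per 10000 in GFPlow, and Ccr4, a skin and lung homing receptor, at 0.713 against 0.251. Cxcr5, the receptor that guides cells to B cell follicles, was lower in GFPlow at 0.110 against 0.338 (log2 ratio -1.46, -3.54 to -0.20). The adhesion receptor Cd44, a standard mark of antigen-experienced T cells, stood at 2.77 against 0.999 in GFPlow (log2 ratio 1.48) and 1.81 against 0.574 in GFPmed (1.68). In GFPhigh it stood at 1.49 against 0.916 on 13 UMIs.

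Few suppressive molecules were deep enough, with 5 of 16 in GFPlow and 4 of 16 in each of the other bins. Medians were 0.94, 1.33 and 1.43. Icos, a costimulatory receptor of effector regulatory T cells, stood at 6.42 against 1.77 UMIs per 10000 in GFPlow, 5.19 against 1.13 in GFPmed and 8.26 against 1.47 in GFPhigh, with log2 ratios of 1.86 (1.62 to 2.1), 2.21 (1.83 to 2.56) and 2.5 (2.1 to 2.87). Ctla4, the inhibitory receptor that removes CD80 and CD86 from antigen-presenting cells, stood at 1.81 against 0.951, 1.88 against 0.854 and 2.41 against 1.39. Its log2 ratios of 0.94, 1.15 and 0.83 lay on both sides of 2-fold. Fgl2, a secreted suppressor, stood at 1.37 against 0.299 in GFPlow (log2 ratio 2.20). Lrrc32 (GARP), which displays latent TGF-beta, was lower at 0.274 against 0.565 in GFPlow (-0.98), where its interval reached from -2.14 to -0.11. Penk, the enkephalin precursor, was seen in gated cells of GFPhigh at 4.59 against 1.14 UMIs per 10000 (log2 ratio 2.03, 1.49 to 2.5) and had 1 UMI in those of GFPlow.

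Killer receptors and granule genes beyond the gate had medians of 0.34 in GFPlow (8 of 10 higher, 3 at least 2-fold), 1.08 in GFPmed (5 of 6 higher, 3 at least 2-fold) and 0.73 in GFPhigh (4 of 5 higher, 2 at least 2-fold), of 20 listed. Ccl5 (RANTES), a chemokine made by effector lymphocytes, stood at 2.83 against 0.430 UMIs per 10000 in GFPlow (log2 ratio 2.72, 2.29 to 3.14). Its level of 10.3 against 0.374 in GFPmed (4.77) moved to 2.65 against 0.305 (3.12) when the cells with markers of other types were left out. The granule proteoglycan Srgn stood at 24.4 against 11.8, 17.8 against 8.0 and 34.6 against 11.1. The lysosomal protease Ctsb had log2 ratios of 0.56, 1.18 and 1.41 from GFPlow to GFPhigh. Without the cells that held markers of other types the killer list's median in GFPmed was 0.73.

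Among cytokine receptors, 9 of 15 compared genes were higher in GFPlow (20 listed, 3 at least 2-fold higher and 1 at least 2-fold lower, median 0.35). That share of higher genes was no larger than among all genes. The medians were -0.26 in GFPmed (4 of 11 higher) and 0.46 in GFPhigh (5 of 7 higher), or 0.17 in GFPhigh without the cells that held markers of other types. Il1rl1 (ST2), the receptor of the alarmin IL-33, had the largest ratio of the list in GFPlow. It stood at 1.62 against 0.154 UMIs per 10000 (log2 ratio 3.38, 2.74 to 4.06) and was found in 40 gated cells (13.4%) against 1.48% of the others. Il18r1, a receptor chain for the alarmin IL-18, stood at 1.32 against 0.502, and Tnfrsf1b (TNF receptor 2), a growth receptor of regulatory T cells, at 2.03 against 1.01 in GFPlow, 3.13 against 0.940 in GFPmed and 5.39 against 1.61 in GFPhigh. The IL-4 receptor chain Il4ra was lower in GFPlow at 0.631 against 1.44 (log2 ratio -1.17). None of the 13 T helper cytokines was deep enough in any bin.

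The regulatory T cell signature genes were higher in part. Their share of higher genes was near that of all genes in GFPlow and GFPmed. In GFPlow 10 of 15 were higher and 5 at least 2-fold (median 0.52, 18 listed), in GFPmed 9 of 13 and 4 (0.29, and 1 at least 2-fold lower) and in GFPhigh 9 of 12 and 3 (0.41). With TMM scaling, which moves every gene alike, the median in GFPmed was -0.02 beside -0.16 over all genes. Nrp1 (neuropilin 1), a surface mark of thymus-derived regulatory T cells, stood at 8.15 against 2.4 UMIs per 10000 in GFPlow (log2 ratio 1.76), 6.44 against 2.54 in GFPmed (1.35) and 4.01 against 3.5 in GFPhigh (0.22, -0.34 to 0.68). Capg, an actin-capping protein of activated regulatory T cells, had like log2 ratios of 1.25, 1.36 and 1.19. Socs2, a cytokine signalling inhibitor, went opposite ways, at 2.47 against 1.19 in GFPlow (1.06) and 0.5 against 1.21 in GFPmed (-1.19), and that difference was not tested.

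**Figure D3:**
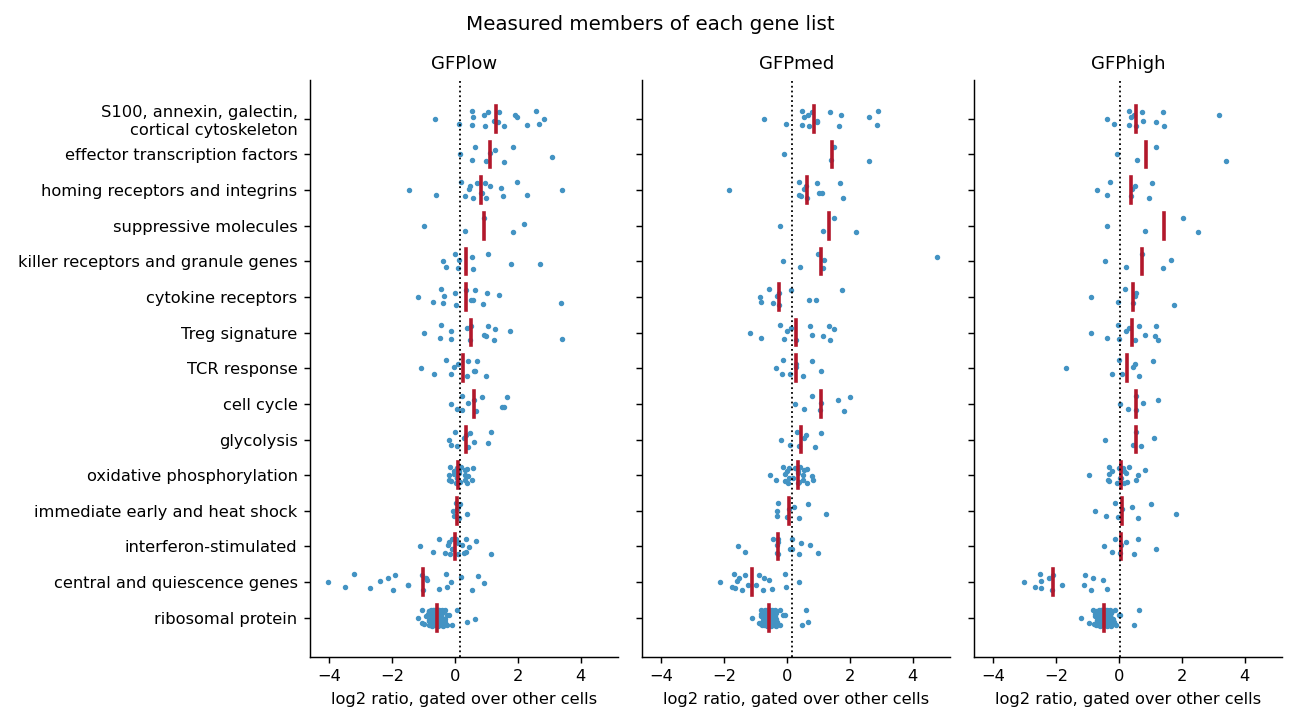
Log2 ratio of gated over other cells for each compared member of the gene lists in the 3 GFP bins, where each point is a gene, red lines mark the list medians and the dotted line marks the median over all genes compared. S100 and cytoskeleton genes (median 1.31) and central genes (median -1.02) sit at opposite ends in GFPlow.

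Central and quiescence genes were the mirror image. Of 24 listed genes 22 were compared in GFPlow, 18 were lower and 11 at least 2-fold lower (median -1.02), against 2.87% of all genes at least 2-fold lower. In GFPmed 17 of 18 were lower, 9 of them at least 2-fold (median -1.11), against 3.26% of all genes. In GFPhigh 15 of 15 were lower, 11 of them at least 2-fold (median -2.09), against 5.53% of all genes.

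Ccr7, the receptor for homing to T cell zones, was found in 6 gated cells of GFPlow (2.01%) and in 23.4% of the others. It stood at 0.165 against 2.95 UMIs per 10000 in GFPlow (log2 ratio -4.05, -5.62 to -3.03), 0.813 against 2.72 in GFPmed (-1.69, -2.66 to -0.96) and 0.573 against 2.68 in GFPhigh (-2.09, -3.86 to -1.0). Igfbp4, a binding protein of insulin-like growth factors found in naive T cells, stood at 0.521 against 4.98, 1.5 against 4.77 and 0.344 against 1.74. Actn1, an actin cross-linker, had log2 ratios of -2.70, -2.11 and -2.46. Ly6c1, a surface protein of resting T cells, had log2 ratios of -2.36, -1.57 and -1.80. Bach2, a repressor that holds T cells in a resting state, was low in GFPlow at 0.0823 against 1.07 (-3.48, -5.98 to -2.13). It differed less in GFPmed (0.563 against 1.18) and in GFPhigh (1.26 against 1.72, log2 ratio -0.39), and was at -1.98 in GFPhigh without the cells that held markers of other types.

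For Klf2 the ratio differed between the bins, a difference that was not tested. Klf2, the factor that drives S1pr1 and keeps T cells in circulation, was higher in gated cells of GFPlow at 9.74 against 6.67 (log2 ratio 0.55, 0.37 to 0.72). It was level in GFPmed at 5.50 against 5.75 (-0.06, -0.39 to 0.25) and lower in GFPhigh at 0.688 against 4.75 (-2.67, -4.24 to -1.66), where 3 of 56 gated and 583 of 1719 other cells had a UMI.

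Genes of the T cell receptor response were close to the genes at large. Of 25 listed genes 12 were compared in GFPlow, 7 of them higher, with 0 at least 2-fold higher, 1 at least 2-fold lower and a median of 0.25 (0.02 without the cells that held markers of other types) beside 0.16 over all genes. The medians were 0.27 in GFPmed (6 of 9 higher) and 0.26 in GFPhigh (6 of 8 higher). With TMM scaling these were -0.03 and -0.07, beside -0.16 and -0.31 over all genes, so their distance from the genes at large was the same by construction. Nr4a1 itself stood at 0.494 against 0.333 UMIs per 10000 in GFPlow (log2 ratio 0.60, -0.27 to 1.33, or -0.14 without the cells that held markers of other types), 1.81 against 0.867 in GFPmed (1.08, 0.45 to 1.63) and 2.87 against 3.43 in GFPhigh (-0.23, -0.89 to 0.32). Cd5, a surface protein that tracks receptor signal strength, had log2 ratios of 0.65, 0.52 and 0.01. Myc, an early growth target, was lower at 0.576 against 1.25 in GFPlow and 0.573 against 2.02 in GFPhigh. The word activated in the label thus rested on effector, adhesion and central genes, and not on this list.

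Cell cycle genes were higher, with 10 of 11 compared genes in GFPlow (3 at least 2-fold, median 0.60, 22 listed), 8 of 8 in GFPmed (5 at least 2-fold, median 1.08) and 6 of 6 in GFPhigh (1 at least 2-fold, median 0.55). Hmgb2, a chromatin protein that peaks in dividing cells, stood at 5.73 against 1.81 UMIs per 10000 in GFPlow, 5.44 against 1.54 in GFPmed and 4.47 against 1.90 in GFPhigh, where 53.8% of its gated UMIs came from 1 cell. Mki67, the proliferation antigen Ki-67, stood at 0.631 against 0.227 in GFPlow (log2 ratio 1.49, or 2.79 without the cells that held markers of other types). The histone transcript Hist1h2ao, named by rank and not one of the listed genes, stood at 15.3 against 2.13 in GFPmed, from 7 gated cells of which 1 held 35.9% of the UMIs. In GFPhigh it stood at 11 against 2.4, from 5 gated cells of which 1 held 59.4%. Its log2 ratio in GFPmed was 2.85, or 4.66 without the cells that held markers of other types, and in GFPhigh 2.21 or 2.98. The ratio in GFPmed changed sign in other settings. It was -2.32 with a gate after thinning and -0.37 without the deepest 2% of cells. It was -0.29 once cells with 2 or more UMIs of any other cell type's markers were dropped.

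Glycolysis genes were higher than the median of all genes in each bin, with medians of 0.36, 0.46 and 0.54 (9 of 11, 7 of 8 and 4 of 5 higher) beside 0.16, 0.15 and 0.02. Oxidative phosphorylation genes had medians of 0.11, 0.34 and 0.06, interferon-stimulated genes -0.01, -0.27 and 0.06, and immediate early and heat shock genes 0.07, 0.08 and 0.10. Without the cells that held markers of other types, oxidative phosphorylation in GFPhigh was at -0.02 and interferon-stimulated genes were at -0.15 in GFPmed and 0.17 in GFPhigh. With TMM scaling the medians of the immediate early and heat shock list were -0.13, -0.23 and -0.23, those of oxidative phosphorylation -0.09 in GFPlow and -0.28 in GFPhigh, and that of interferon-stimulated genes -0.27 in GFPhigh, beside -0.04, -0.16 and -0.31 over all genes in GFPlow, GFPmed and GFPhigh. These signs thus follow the scaling. Gapdh, a glycolytic enzyme, stood at 3.57 against 2.34 UMIs per 10000 in GFPlow and 5.38 against 2.53 in GFPmed. Ribosomal protein genes were lower together, with 83 of 86 compared genes lower in GFPlow (median -0.58), 82 of 85 in GFPmed (-0.56) and 81 of 84 in GFPhigh (-0.47). Few of them reached 2-fold, 3 of 86 in GFPlow.

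By rank, the genes with the largest ratios in GFPlow outside these lists included Glrx, the redox enzyme glutaredoxin (3.59 against 0.686 UMIs per 10000), Cdc25b, a phosphatase that drives mitotic entry (2.28 against 0.502), Cldnd1 (2.47 against 0.608) and Serpina3g, a protease inhibitor of activated lymphocytes (1.89 against 0.560). Among the lowest were Myo6, a motor protein (0.0823 against 1.55), Atp1b1, a sodium pump chain (0.0549 against 0.690), and Vps37b (0.110 against 0.748). Globin transcripts were lower too, and in the other cells of GFPlow 1 cell held 56.8% of all erythroid marker UMIs.

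Of 1351 genes deep enough in all 3 bins, 14 were at least 2-fold higher in each and 12 at least 2-fold lower in each. The 14 were S100a10, S100a11, Lgals1, Capg, Itgb1, Icos, Tnfrsf1b, Srgn, Maf, Hif1a, Ikzf2, Hmgb2, Serinc3 and Sla. The 12 were Ccr7, Igfbp4, Actn1, Ly6c1, Satb1, Bcl2, Nsg2, Rpl26, Ift80 and 3 globins (Hbb-bs, Hbb-bt and Hba-a2). The globins did not hold without the cells that held markers of other types, where the log2 ratios over the 3 bins were 1.78, 0.31 and 3.14 for Hbb-bs, 2.03, 0.84 and 3.51 for Hbb-bt, and 0.02, -1.48 and -0.40 for Hba-a2. All gated cells of the 3 bins held 17, 8 and 2 UMIs of the 7 erythroid markers, with Hbb-bs and Hbb-bt at 0 in GFPmed. The positive values in GFPmed thus come from the 0.5 UMI added, and no positive globin ratio can be read as a rise. Sla, Satb1, Bcl2, Rpl26 and Ift80 are named because they passed in each bin and so were picked after their values were seen. Satb1, a chromatin organiser of resting T cells, had log2 ratios of -1.48, -1.74 and -1.07, and the survival gene Bcl2 of -1.96, -1.54 and -2.48. Among genes compared in both GFPlow and GFPmed, 36 were at least 2-fold higher in both, which was 57.1% of the 63 in GFPlow and 26.9% of those in GFPmed. Between GFPlow and GFPhigh 17 were shared, 53.1% of 32 and 29.8% of 57.

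The pattern outside the gate was graded with the number of gate UMIs in GFPlow. Cells with 0, 1, 2, 3 to 4 and 5 or more gate UMIs made up 78.05%, 7.91%, 3.58%, 4.15% and 6.31% of that library. Just outside the threshold, at 1 gate UMI, Itgb1 stood at 10.5 UMIs per 10000, and just inside, at 2, at 13.8, between 3.05 at 0 and 22.1 at 5 or more. Id2 stood at 0.370, 1.24, 2.84, 3.63 and 4.31 over the 5 classes, and the summed S100 and cytoskeleton list at 48.3, 71.5, 84.7, 102.7 and 158.5.

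Central genes ran the other way, with the summed list at 69.5, 46.8, 44.4, 42.1 and 39 UMIs per 10000. Ccr7 stood at 3.09, 1.46, 0.119, 0.202 and 0.166, and Igfbp4 at 5.35, 1.07, 1.30, 0.605 and 0.111. Foxp3 stood at 3.69, 3.65, 4.50, 5.65 and 5.08, and the summed T cell receptor response list at 15.8, 18.3, 20.6, 17.1 and 20.4, with no such steady order. Cells with 1 gate UMI lay between the classes on either side for Itgb1, Id2 and the summed lists of S100 and central genes, which places part of the other cells between the extremes. The median depth of the 5 classes of GFPlow lay between 0.911 and 1.15 times that of the cells with 0 gate UMIs. In the other bins the summed central list was also lower in each higher class, at 66.6, 50.5, 42, 38 and 28.6 UMIs per 10000 in GFPmed and 62, 33.3, 29.8, 20.4 and 14.7 in GFPhigh. The summed S100 and cytoskeleton list kept its order in GFPmed (41.5, 62, 71.7, 76.4 and 126.8) but not in GFPhigh (38.7, 43.6, 62.2, 55.4 and 85.9). Itgb1 had no steady order there, at 2.02, 6.92, 7.92, 5.89 and 8.54 in GFPmed and 1.70, 5.46, 3.77, 6.44 and 1.53 in GFPhigh, and nor had Id2, at 0.207, 1.58, 2.07, 1.79 and 2.0 in GFPmed and 0.512, 1.86, 3.02, 1.43 and 2.45 in GFPhigh. The top class of GFPhigh was 16 cells at 1.39 times the median depth of those with 0 gate UMIs.

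**Figure D4:**
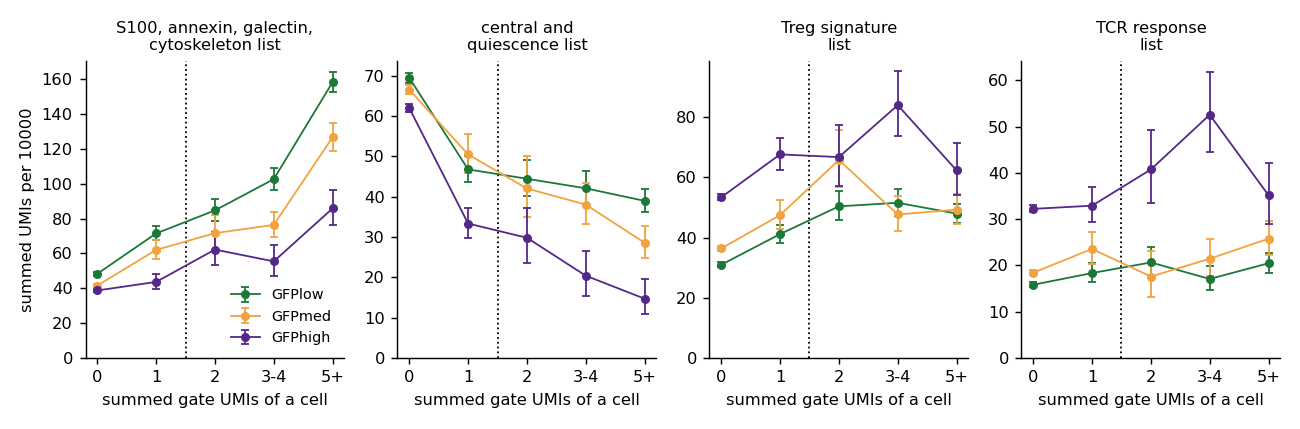
Summed levels of 4 gene lists (UMIs per 10000) by the number of gate UMIs in a cell, for each GFP bin, with exact Poisson 95% intervals and a dotted line at the gate. In GFPlow the S100 and cytoskeleton list went from 48.3 in cells with 0 gate UMIs to 158.5 in cells with 5 or more, and the central list from 69.5 to 39.

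The gated cells of GFPlow were split by the gate gene they carried, a split made after the data were seen. S100a4 or S100a6 alone was found in 56% of them, Ccr2 without Klrg1 or Gzmb in 73 (24.5%), Klrg1 or Gzmb without Ccr2 in 29 (9.73%), and both in 29 (9.73%). The same classes held 56, 11, 13 and 5 cells in GFPmed, and 33, 1, 21 and 1 in GFPhigh. In GFPhigh the Klrg1 or Gzmb class thus held 37.5% of the gated cells and the Ccr2 class 1.79%.

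All 4 classes of GFPlow were on the same side of the other cells for the main lists. The median of the S100 and cytoskeleton list was 1.06, 1.55, 1.35 and 1.87 over the 4 classes in that order, that of central genes -0.88, -1.01, -1.12 and -1.58, and that of effector transcription factors 0.82, 1.38, 0.74 and 1.93. Cells with both kinds of gate gene lay furthest from the other cells in each. That class was 29 cells with a median depth of 1276 UMIs, against 1093, 1088 and 1151 in the classes before it. It holds different gate genes by construction, and the summed S100 and central lists of GFPlow were graded with the number of gate UMIs. The parts of depth and of the number of gate UMIs in this order were not tested. Id2 stood at 2.55, 4.04, 4.61 and 8.61 UMIs per 10000, and Il1rl1 at 0.662, 2.29, 2.71 and 3.8. Ccl5 followed Klrg1 or Gzmb more than Ccr2, at 1.43, 2.4, 7.86 and 6.08. Suppressive molecules did likewise, with medians of 0.66, 0.63, 2.04 and 1.48, and Ctla4 stood at 1.48, 1.42, 3.79 and 2.53. Itgb1 (17.6, 18.4, 16.8 and 22.8) and Foxp3 (4.84, 5.57, 4.61 and 5.82) differed little between the classes.

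The gated cells of GFPhigh were then set against those of GFPlow, which asks how the same gate differs along the reporter. Both this comparison and that of GFPmed with GFPlow use the same gated cells of GFPlow. As the background for the lists, of 3933 compared genes 346 were at least 2-fold higher in gated GFPhigh cells (8.8%) and 486 lower (12.4%). Among the other cells of the same bins, 3.82% of 9275 genes were at least 2-fold higher in GFPhigh and 1.88% lower. The gated groups hold far fewer UMIs than the other cells, so their counting intervals are wider. The parts of library and of counting error in these shares were not tested.

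T cell receptor response genes were higher in GFPhigh, with 14 of 16 compared genes higher and 8 at least 2-fold (median 1.0). In the other cells the median of that list was 0.85, so the difference was of like size outside the gate. Penk stood at 4.59 against 0.0274 UMIs per 10000 (log2 ratio 6.82, 4.82 to 12.7, and 4.02 in other cells), with 35% of its UMIs in 1 of 10 cells. Tnfrsf9 (4-1BB), a costimulatory receptor induced by receptor signals, stood at 5.50 against 0.466 (3.53, 2.74 to 4.45, and 4.01 in other cells). Nr4a1, whose reporter was sorted on, stood at 2.87 against 0.494 (2.53, 1.61 to 3.5, or 3.24 without the cells that held markers of other types, and 3.35 in other cells). Nrn1 stood at 2.87 against 0.247, with 48% of its UMIs in 1 of 8 cells.

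S100 and cytoskeleton genes were lower in gated cells of GFPhigh, with 15 of 20 lower and 9 at least 2-fold lower (median -0.87, and -0.30 in other cells). The summed list stood at 68.9 against 126 UMIs per 10000. Homing receptors were lower as well, with 12 of 18 lower and 7 at least 2-fold (median -0.85). Itgb1 stood at 3.78 against 18.3 (log2 ratio -2.25, -2.82 to -1.77, and -0.99 in other cells). Klf2 stood at 0.688 against 9.74 (-3.71, -5.28 to -2.69, and -0.49 in other cells). Nrp1 was lower at 4.01 against 8.15 in gated cells (-1.0), where it was higher in the other cells (0.55). S100a11 was level at 8.14 against 8.48 (-0.05).

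Effector transcription factors as a list were close to the genes at large. Of 11 compared genes 4 were higher and 7 lower in gated cells of GFPhigh (median -0.05, beside 0.02 over all genes). Without the cells that held markers of other types, 8 were higher and 3 lower (median 0.03). Maf of that list, and some genes of other lists, were at least as high in gated cells of GFPhigh. Maf stood at 9.86 against 6.97 UMIs per 10000 (log2 ratio 0.51, 0.13 to 0.86), with -1.06 in the other cells. Ikzf2 stood at 17.5 against 10.1 (0.80, and 0.85 in other cells) and Tnfrsf1b at 5.39 against 2.03 (1.41, and 0.66 in other cells). Icos stood at 8.26 against 6.42 (0.37, and -0.27 in other cells). H2-Eb1, an MHC class II chain of B cells and myeloid cells, stood at 6.19 against 0.384 (3.97), and at a log2 ratio of 0.56 without the cells that held markers of other types. At the low end by rank, Chfr, Vezf1, Slc25a24, Fam117b and Osbpl5 had 0 UMIs in gated cells of GFPhigh against 44, 40, 39, 39 and 36 in GFPlow. Taking 3 UMIs as the most that a count of 0 allows, their log2 ratios were at most -1.81, -1.67, -1.64, -1.64 and -1.52.

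**Figure D5:**
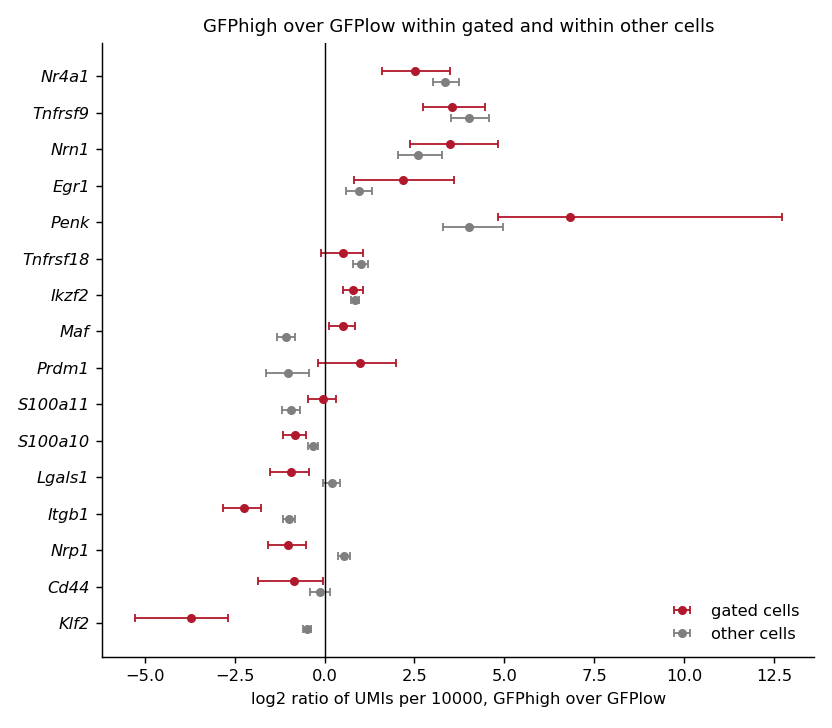
Log2 ratio of GFPhigh over GFPlow for named genes in the gated cells and in the other cells, with exact 95% counting intervals. Tnfrsf9 and Nr4a1 were higher in both kinds of cell, while Maf was at 0.51 in gated and -1.06 in other cells.

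Fewer genes passed 2-fold between the gated cells of GFPmed and GFPlow than between those of GFPhigh and GFPlow. Gated cells of GFPmed also held more UMIs in all, 159961 against 87205 in GFPhigh, and the part of depth in this was not tested. Of 4334 compared genes 4.98% were at least 2-fold higher and 7.36% lower, where 2.06% and 1.67% of 9271 genes were so in the other cells of the same bins. Cell cycle genes were higher (12 of 14, 7 at least 2-fold, median 1.04, against 0.81 in gated GFPhigh over gated GFPlow). Homing receptors were lower (15 of 18, 6 at least 2-fold, median -0.63). S100 and cytoskeleton genes were lower too (17 of 21, 1 at least 2-fold, median -0.31). Without the cells that held markers of other types these were 18 of 21, 3 and -0.53. Central genes had a median of -0.01 and T cell receptor response genes of 0.18 beside -0.02 over all genes, and 0.09 and 0.40 without those cells. Gzma, Lyz1, Lyz2, Hist1h2ah and Hist1h2ac had the largest ratios. Gzma had 77 UMIs in 7 cells against 0 in GFPlow, and 0 of those UMIs were left without the cells that held markers of other types. All 92 Lyz1 and 53 Lyz2 UMIs came from 1 cell, which is among those cells. Ccl5, at a log2 ratio of 1.86, was at -0.06 without them. At the low end were Col1a2, Wasl, Rap2b, Slc4a7 and F2rl1. Of the 31 Col1a2 UMIs of GFPlow 58.1% came from 1 of 5 cells. Slc4a7, a bicarbonate transporter, stood at 0.5 against 2.91 UMIs per 10000 (-2.46, -3.79 to -1.51).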

How the data were processed

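Single cells were measured by inDrops, which primes on poly(A) and amplifies by in vitro transcription, with sequencing on a NextSeq500, per the labels' protocols. The authors deposited 1 table of whole-number UMI counts per gene and cell, and each labelled sample is 1 cell. TopHat2, SAMtools and mm10 are named in the submitters' processing notes, with versions not given in the sources used here. All 6106 columns matched a sample, and 22822 of 23725 gene symbols (96.2%) matched GENCODE M21. Of the counts, 0 columns belonged to other samples.

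Cells under 500 UMIs were left out (249, 145 and 277 of GFPlow, GFPmed and GFPhigh). Doublets were not removed. UMIs were summed over the gated and the other cells of a bin, scaled to 10000 and compared as a log2 ratio with 0.5 UMI added to each count. Gated cells held 364484, 159961 and 87205 UMIs in all, and the others 2071386, 2352316 and 2183171. Levels carry exact Poisson, ratios exact conditional binomial and shares Clopper-Pearson 95% intervals, which cover counting error only. A gene was compared within a bin at an expected gated count of at least 10, and between bins at 20 UMIs or more. No test was possible across 1 library a bin, so a difference past 2-fold is a description. Thinning drew 500 UMIs per cell without replacement.

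Genes were named by rank (20 highest and 10 lowest ratios in GFPlow, 5 and 5 in each other comparison) among genes with an expected gated count of at least 20 (30 UMIs between bins), leaving out gate, mitochondrial, ribosomal, antigen receptor and unnamed genes. From each list, at most 6 genes with the largest ratio in GFPlow were added, and marker genes were always named. Some genes that met the rule are not reported here. Vim, Cd3d, Lck and Il2ra were added as list or marker genes, and Sla, Satb1, Bcl2, Rpl26 and Ift80 because they passed in each bin, after their values were seen. The members, the lists and the rule were chosen with earlier results of these data known. The gate was also varied in depth, threshold and genes, cells with markers of other types were left out, and TMM (edgeR 4.0.16 in R 4.3.3) and median-of-ratios scaling were tried. The sums were checked on simulated data. Python 3.11.15, numpy 2.4.6, scipy 1.17.1, pandas 2.3.3 and matplotlib 3.10.9 were used.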

Additional observations from a re-analysis of the deposited data

Results flagged for a closer look

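Cells under 500 UMIs, which entered no comparison, also carried gate UMIs. In GFPlow 19 of 249 such cells held at least 2 (7.63%, where 3 counts, the most that a count of 0 allows, come to 1.20%), and 4 such cells of GFPmed did (2.76%, against 2.07%).

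For a pair of genes the ratio of gated over other cells had opposite signs in different bins, with 1 library a bin and the difference not tested. Klf2, a factor of circulating T cells, had a log2 ratio of 0.55 in GFPlow and -2.67 in GFPhigh. Socs2, an inhibitor of cytokine signalling, had 1.06 in GFPlow and -1.19 in GFPmed, where the gated cells held 8 UMIs.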

How the results depend on the processing

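Of 270 values of 15 main results under the alternatives, 215 stayed near the value reported, 55 moved and 0 changed sign. Main results that are shares cannot change sign, so only the list medians could have done so. The order of more genes higher than lower turned round with TMM in GFPlow and GFPmed. It also turned with median-of-ratios scaling, at 3.29% higher and 4.02% lower in GFPlow and 4.03% and 4.28% in GFPmed. The gated share of 14.0% in GFPlow was 22% with 1 gate UMI or more, 10.5% with 3 or more, 8.57% after thinning, 10.4% without S100a4 and 9.0% without S100a6. That of 5.53% in GFPmed was 8.91%, 4.23%, 2.54% and, without S100a6, 2.80%. That of 3.15% in GFPhigh was 6.99%, 2.08%, 1.63% and 1.86% in the same order, and 4.23% in cells with 1000 or more UMIs. The number of genes past 2-fold moved by over 1.5 times in the settings that follow, given as shares of the genes compared. In GFPlow the 5.04% higher and 2.87% lower were 2.77% and 4.68% with TMM, 16.2% and 6.76% with no depth minimum, 3.05% and 1.52% at an expected count of 25, 17.7% and 8.36% past 1.5-fold, and 3.29% higher with median-of-ratios scaling. In GFPmed the 5.46% and 3.26% were 2.28% and 6.88% with TMM, 34.3% and 7.02% with no minimum, 3.08% and 2.51% at 25, 18.7% and 9.28% past 1.5-fold, 5.59% and 5.59% with a thinned gate, 4.77% and 4.43% without S100a6, 4.46% and 3.47% once cells with 2 UMIs or more of any other cell type's markers were dropped, and 2.56% lower without the deepest 2% of cells. In GFPhigh the 4.35% and 5.53% were 1.62% and 11.6% with TMM, 38.9% and 8.33% with no minimum, 1.81% and 3.17% at 25, 15.6% and 14.2% past 1.5-fold, 3.38% and 5.64% with a thinned gate, 3.81% and 5.59% without S100a6, 3.42% and 5.7% with those cells dropped, and 3.41%, 4.23% and 3.23% higher with 1 gate UMI, 3 gate UMIs and no S100a4. Fewer or more cells or genes enter these shares by construction.

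Of 4626 values for single genes 26 changed sign, mostly in globins. With cells of any other type's markers dropped as above, Hbb-bs was at 0.98, 2.64 and 2.43 in GFPlow, GFPmed and GFPhigh, Hbb-bt at 0.98, 2.64 and 2.43, and Hba-a2 at 0.77 in GFPmed and 1.58 in GFPhigh. Hbb-bs and Hbb-bt had 0 UMIs in all gated cells of GFPmed, so their values there come from the 0.5 UMI added. All gated cells of the 3 bins held 17, 8 and 2 UMIs of the 7 erythroid markers, so positive globin values cannot be read as a rise. With cells of 3 or more rare-marker UMIs dropped, Hbb-bs was at 1.78, 0.31 and 3.14, Hbb-bt at 2.03, 0.84 and 3.51, and Hba-a2 at 0.017 in GFPlow. Without the deepest 2% of cells, Hbb-bs was at 1.92 and Hbb-bt at 1.79 in GFPhigh. H2-Eb1 in GFPmed was at 1.87 with 1 gate UMI, 2.64 without cells of other types and 0.55 without rare-marker cells. In GFPmed with a thinned gate Hist1h2ac was at -1.56, Hist1h2ah at -0.83 and Hist1h2ao at -2.32, and Hist1h2ao was at -0.37 without the deepest cells and -0.29 without cells of other types. Col1a2 in GFPlow was at -0.38 in cells with 1000 or more UMIs. Apart from the Hbb-bs and Hbb-bt values of GFPmed, the cause was not tested. The list medians of GFPlow kept their sign, at 1.11 to 1.49 for S100 and cytoskeleton genes, -1.27 to -0.80 for central genes and 0.02 to 0.36 for T cell receptor response genes. The summed UMIs of the gated cells, and not the depth per cell, were smallest in GFPhigh. There 56 gated cells held 87205 UMIs in all, and 1357 genes could be compared. In GFPlow the gated cells held 364484 UMIs, and 4979 genes could be compared.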
